A study of Mus musculus with 10 samples.

Results

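The genes described here encode subunits of the BAF complex that are exchanged when a neural progenitor becomes a neuron. They are 10 genes of the 20405 measured: 4 that encode progenitor forms (Actl6a, Phf10, Dpf2 and Ss18), 4 that encode neuronal forms (Actl6b, Dpf1, Dpf3 and Ss18l1) and 2 that encode core subunits (Smarca4 and Smarcc1). They were chosen by name through the deposited gene numbers, and each was measured by 1 probe set. Total RNA came from the cortices of single mouse embryos at E10.5, each array holding the pair of 1 embryo, and was hybridised to Affymetrix whole-transcript arrays. There were 5 Magoh mutant embryos, heterozygous for the allele called Mos2, and 5 wild-type embryos, all on the C57BL/6 background. As heterozygotes the mutant embryos keep 1 normal copy of Magoh, and the labels name no Cre driver or transgene. Values are log2 expression levels from the RMA method, differences are Magoh mutant minus wild type, and a difference of 1 is a doubling.

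BAF complexes use the energy of ATP to move nucleosomes and so open or close chromatin. Dividing neural progenitors assemble a complex (npBAF) that holds Actl6a, Phf10 or Dpf2, and Ss18. As cells leave the cycle these are replaced by Actl6b, Dpf1 or Dpf3, and Ss18l1, which gives the neuronal complex (nBAF). In mice the exchange is tied to cell-cycle exit, and the neuronal complex is needed for dendrites to grow. The product of Magoh belongs to the exon junction complex, a mark that splicing leaves on mRNA. The comparison asks whether either set of subunit transcripts differs in Magoh mutant cortex at an age when most cells are progenitors.

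The Actl6 genes are the clearest one-for-one exchange, so the 250 bases before their transcription starts are shown to let a reader compare the promoters of a progenitor and a neuronal form. They are from RefSeq, assembly GRCm38.p6, on the plus strand at chr3:32708296-32708545 (Actl6a) and chr5:137553296-137553545 (Actl6b). Capitals mark CG dinucleotides, of which the first has 19 and the second 15.
Actl6a: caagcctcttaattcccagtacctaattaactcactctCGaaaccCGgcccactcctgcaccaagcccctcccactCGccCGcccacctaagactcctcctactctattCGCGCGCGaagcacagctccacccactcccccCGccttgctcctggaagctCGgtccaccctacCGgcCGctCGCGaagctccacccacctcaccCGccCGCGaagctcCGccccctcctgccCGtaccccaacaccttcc
Actl6b: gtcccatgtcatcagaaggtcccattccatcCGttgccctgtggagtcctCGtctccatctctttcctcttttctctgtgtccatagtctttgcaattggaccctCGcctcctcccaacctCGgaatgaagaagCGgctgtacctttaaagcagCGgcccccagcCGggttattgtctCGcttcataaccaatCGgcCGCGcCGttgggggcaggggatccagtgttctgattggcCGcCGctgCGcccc

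Promoter windows of 300 bases, 250 before the start and 50 after it, were found in the RefSeq table for 9 of the 10 genes. The gene without one was Ss18. All 9 had a higher CG count than the median of 7 over 32851 windows of all genes. The counts ran from 17 in Dpf3 (percentile 70.3 of all windows) to 62 in Phf10 (percentile 99.97). Actl6a and Actl6b stood at percentiles 76.9 and 80.0, so counts above the median were found in progenitor and neuronal forms alike. The windows were also searched on both strands for the parts of RE1, the element bound by Rest, which represses neuronal genes in progenitors. The left part TTCAGCACC was in none of the 9 windows and in 0.371% of all windows, while the right part GGACAGC was in the Actl6b window alone of the 9 and in 6.56% of all windows. Shortened by its first letter to TCAGCACC, the left part was in the Actl6b window too, and in 1.65% of all windows. These lie 21 to 44 bases after the start on the minus strand, at chr5:137553567-137553590, and are shown because they set Actl6b apart by sequence from Actl6a. Capitals mark the parts, which are 9 bases apart.
Actl6b RE1 parts: TCAGCACCgaggcggccGGACAGC
Both parts in this order at most 20 bases apart were found in 0.0548% of all windows. The shortened part and the limit of 20 bases were chosen after the Actl6b window had been read. A match of letters does not show that Rest binds there. The motif CAGATG, an E-box used by proneural factors, was in the window of Smarcc1 alone of the 9 and in 17.2% of all windows.

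Magoh itself was lower in all 5 mutant arrays, at 0.559 times the level in wild type (adjusted p = 8.5e-05 in limma), so the labels and the mutated gene go together. Background was gauged by negative-control probe sets, whose 95th percentile had a mean of 8.57 across arrays, and 73.5% of all genes had a mean level below it. Deviations of single genes from the mutant mean were widest on mutant arrays 1 and 5, with SD 0.20 and 0.15. The SD was 0.12 to 0.14 on the other mutant arrays and 0.09 to 0.11 on wild-type arrays. Array 5 was thus only just above the other mutants. Genes below the median level averaged 5.57 and 5.63 on arrays 1 and 5, 5.49 to 5.53 on the other mutant arrays and 5.53 to 5.57 on wild-type arrays. By that mean array 5 lay above the wild-type range, array 1 at its upper end and mutant array 4 below it. The 2 measures thus do not set the same arrays apart. Results that rest on arrays 1 and 5 are given with and without them, a choice made after seeing the data. Each genotype held 3 male and 2 female embryos by their sex-linked genes. Of 20 apical progenitor markers, 16 lay above 8.57 in both genotypes, so markers of the labelled tissue were present. By the same measure so were 7 of 14 mesenchyme markers and 6 of 13 red cell markers. For surface ectoderm it was 2 of 12, for endothelium 1 of 14 and for macrophages 0 of 14. The measure thus does not show that the arrays held neural tissue alone.

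None of the 10 genes differed between the genotypes past the threshold. In limma, fitted over all genes with Benjamini-Hochberg adjustment, 0 of 10 were higher and 0 were lower at an adjusted p under 0.05, and 0 were so at an unadjusted p under 0.05. Over all 20405 genes, 0.26% were called higher and 0.314% lower, and at the unadjusted threshold 4.57% were higher and 4.68% lower. The genotypes overlapped for all 10 genes, against 2.82% of all genes in which they did not. Differences ran from -0.14 (Dpf1) to 0.08 (Dpf2) with a median of -0.02, beside a median of 0.00 over all genes. The precision was that of 5 arrays a genotype: the 95% intervals of the 10 differences reached down to -0.32 and up to 0.22, that is 0.801 to 1.16 times the wild-type level. These intervals therefore leave room for changes of signal of up to about that size, and missing the threshold does not show that the levels were equal. They bound the signal and not the transcript. For the 4 neuronal forms, which lay below 8.57, a change of transcript could be larger.

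**Figure D1:**
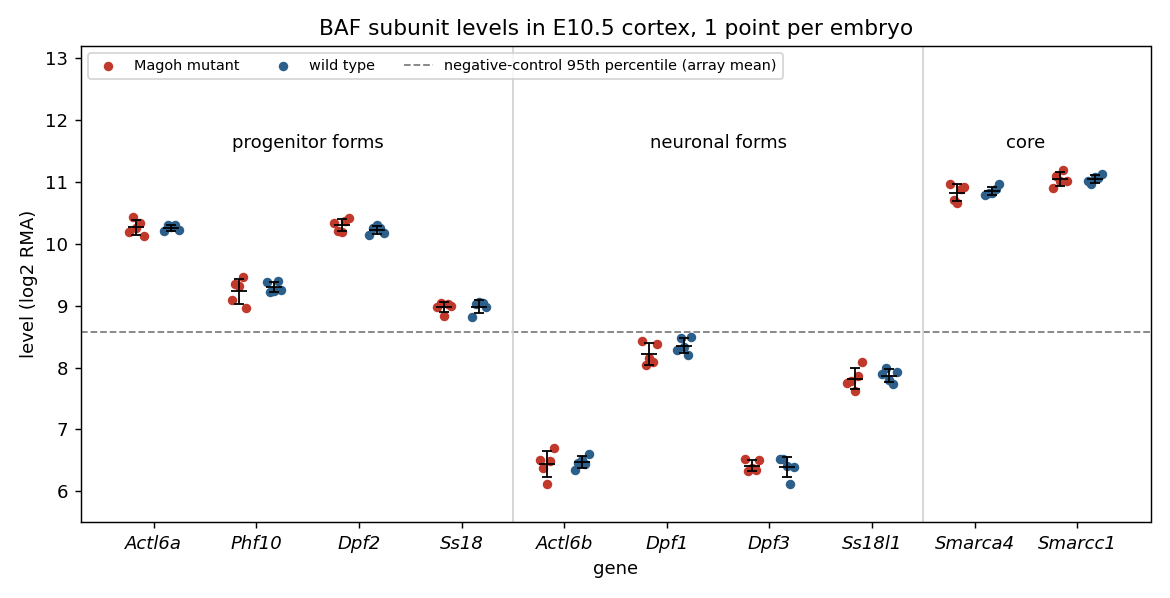
Levels (log2 RMA, vertical axis) of the 10 genes on the horizontal axis, with 1 point per embryo, Magoh mutants in red at the left of each gene and wild type in blue at the right; bars are mean ± SD of 5 arrays. The progenitor forms and core subunits lie above the dashed line at 8.57, the neuronal forms below it, and the genotypes overlap for every gene.

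Among the progenitor forms, Actl6a (Entrez 56456, chromosome 3) encodes BAF53a, an actin-like protein that progenitors need to keep dividing. Its levels were 10.18, 10.43, 10.26, 10.33 and 10.13 in mutants 1 to 5, against 10.21, 10.30, 10.28, 10.31 and 10.22 in wild-type embryos 1 to 5. The mutant arrays lay on both sides of the wild-type range, 2 above it and 2 below it, and arrays 1 and 5 were the low ones. The means were 10.27 ± 0.12 in mutants and 10.26 ± 0.05 in wild type (SD, n = 5 each), a difference of 0.0049 (SE 0.07, 95% interval -0.14 to 0.15, limma adjusted p = 0.993). Without mutant arrays 1 and 5 it was 0.08 (limma adjusted p = 0.55).

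Phf10 encodes BAF45a, a subunit with paired PHD fingers that read histone tails. It was at 9.09, 9.34, 9.31, 9.46 and 8.96 in mutants, against 9.39, 9.23, 9.24, 9.40 and 9.26 in wild type. Mutant arrays 1 and 5 were again below every wild-type array, and the other mutant arrays were not. Over all arrays Phf10 differed by -0.07 (SE 0.09, 95% interval -0.26 to 0.12, limma adjusted p = 0.88), and without mutant arrays 1 and 5 together by 0.07 (limma adjusted p = 0.637), so its direction turned.

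Dpf2, the gene of BAF45d, is a relative of Phf10 that is expressed in many tissues. It measured 10.34, 10.22, 10.19, 10.37 and 10.41 in mutants, against 10.15, 10.25, 10.30, 10.26 and 10.18 in wild type. Mutant arrays 1, 4 and 5 lay above the wild-type range and the other two inside it. The difference was 0.08 (SE 0.07, 95% interval -0.06 to 0.22, limma adjusted p = 0.808), and 0.03 without mutant arrays 1 and 5.

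Ss18 (chromosome 18) encodes a subunit that neurons replace by the product of Ss18l1. Levels were 8.97, 9.05, 8.83, 9.03 and 8.998 in mutants, against 8.82, 9.02, 9.06, 9.05 and 8.98 in wild type, so all mutant arrays fell inside the wild-type range. It differed by -0.01 (SE 0.07, 95% interval -0.15 to 0.13, limma adjusted p = 0.981), and by -0.02 without mutant arrays 1 and 5.

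All 4 neuronal forms lay below 8.57 on all 10 arrays, where background makes up part of the signal and differences can be understated. Actl6b (Entrez 83766, chromosome 5) encodes BAF53b, the neuron-specific counterpart of Actl6a. It was at 6.51, 6.38, 6.12, 6.48 and 6.70 in mutants, against 6.34, 6.46, 6.51, 6.43 and 6.60 in wild type. Both the lowest and the highest of the 10 values were in mutants, on arrays 3 and 5. The means were 6.44 ± 0.21 in mutants and 6.47 ± 0.10 in wild type (SD, n = 5 each), a difference of -0.03 (SE 0.09, 95% interval -0.23 to 0.16, limma adjusted p = 0.959), and it was -0.14 (limma adjusted p = 0.416) without mutant arrays 1 and 5. The level stood at percentile 37.7 of all genes, close above the medians of the negative controls, which were 5.34 to 5.82.

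Dpf1, which encodes the neuronal subunit BAF45b, had the largest difference of the 10. Its levels were 8.42, 8.05, 8.16, 8.09 and 8.39 in mutants, against 8.28, 8.48, 8.33, 8.21 and 8.49 in wild type. Mutant arrays 2, 3 and 4 were below every wild-type array, while arrays 1 and 5 lay inside the wild-type range. The difference was -0.14 (SE 0.09, 95% interval -0.32 to 0.05, limma adjusted p = 0.704), at percentile 83.2 of all genes by size. Without mutant arrays 1 and 5 it was -0.26 (limma adjusted p = 0.0881), still short of the threshold.

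Dpf3 encodes BAF45c, which in mice also serves heart and skeletal muscle. At 6.52, 6.33, 6.38, 6.34 and 6.50 in mutants, against 6.52, 6.53, 6.42, 6.13 and 6.39 in wild type, it was dim in both genotypes, and the mutant arrays lay inside the wild-type range. The difference was 0.02 (SE 0.08, 95% interval -0.15 to 0.19, limma adjusted p = 0.964), and -0.04 without mutant arrays 1 and 5.

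Ss18l1 encodes CREST, a calcium-responsive activator needed for dendrite growth in mice. It measured 7.76, 7.78, 7.62, 7.86 and 8.10 in mutants, against 7.90, 7.99, 7.79, 7.74 and 7.93 in wild type. Mutant array 3 was the lowest of all and mutant array 5 the highest. The difference was -0.05 (SE 0.08, 95% interval -0.23 to 0.13, limma adjusted p = 0.925), and -0.11 without mutant arrays 1 and 5.

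The core subunits gave strong signals, at percentiles 96.9 and 97.6 of all genes, though array signals of different probe sets do not rank transcripts by amount. Smarca4 encodes Brg1, the ATPase that drives the complex in progenitors and neurons alike. It was at 10.96, 10.72, 10.67, 10.89 and 10.92 in mutants, against 10.79, 10.82, 10.83, 10.88 and 10.96 in wild type, a difference of -0.03 (SE 0.07, limma adjusted p = 0.951). Mutant arrays 2 and 3 lay below the wild-type range, and without mutant arrays 1 and 5 the difference was -0.10. Smarcc1 encodes BAF155, a scaffold subunit that is abundant in progenitors. Its levels were 10.90, 11.10, 11.02, 11.20 and 11.01 in mutants, against 11.02, 10.97, 11.07, 11.06 and 11.13 in wild type, a difference of -0.01 (SE 0.07, limma adjusted p = 0.984) whose mutant arrays spread over and beyond the wild-type range. Without mutant arrays 1 and 5 it was 0.05.

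The exchange can also be read within an array, as the level of a neuronal form minus that of its progenitor form, set to 0 at the wild-type mean. This is a description of these arrays and carries no test. All 4 neuronal forms lay below 8.57 on every array, so background makes up part of each shift. For Actl6b minus Actl6a the shift was 0.12, -0.26, -0.35, -0.05 and 0.37 in mutants 1 to 5, against a range of -0.08 to 0.18 in wild type. Mutant arrays thus fell on both sides of the wild-type range, 2 below it and array 5 above it. For Ss18l1 minus Ss18 the mutants ran from -0.15 to 0.22, against -0.19 to 0.19 in wild type. For the BAF45 subunits, as the mean of Dpf1 and Dpf3 minus the mean of Phf10 and Dpf2, the mutants ran from -0.31 to 0.15, against -0.28 to 0.15 in wild type. The mutant means of these shifts were -0.04, -0.04 and -0.06, each smaller than its SD among mutants (0.29, 0.14 and 0.20). Without mutant arrays 1 and 5 the means of the 3 mutants left were -0.22, -0.10 and -0.20, and all 3 mutants were below 0 for each pair. Arrays 1 and 5 held the highest mutant values for the Actl6 and BAF45 pairs, so leaving them out had to lower those means. Wild-type arrays also reached below 0 for each pair, down to -0.08, -0.19 and -0.28. Array 5 had the highest mutant value for all 3 pairs.

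**Figure D2:**
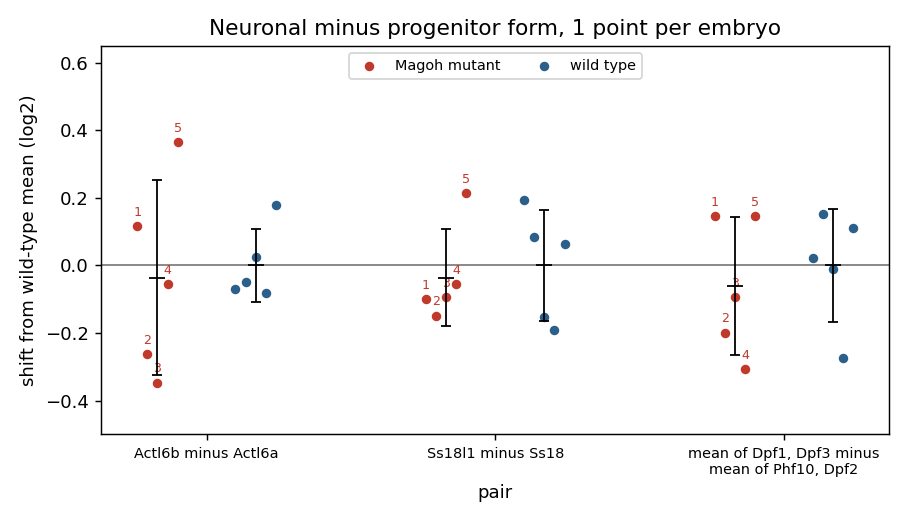
Neuronal minus progenitor form for the 3 pairs on the horizontal axis, as the shift from the wild-type mean (log2, vertical axis), with 1 point per embryo, Magoh mutants in red at the left (numbered 1 to 5) and wild type in blue at the right; bars are mean ± SD of 5 arrays. Mutant values for Actl6b minus Actl6a spread from -0.35 to 0.37, wider than the wild-type values. The 3 mutant means are -0.04, -0.04 and -0.06, and mutants 2, 3 and 4 lie below 0 for each pair, as do some wild-type arrays. The neuronal forms lay below 8.57 on every array.

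Part of the neuron markers did fall in the same arrays. Of 20 neuron markers, 0 rose and 9 fell (limma, adjusted p under 0.05), with a median of -0.37. The 4 with the smallest p were Tubb3 (-0.61), Map2 (-0.53), Slc17a6 (-0.97) and Elavl4 (-0.52). Of 14 genes of neurogenic commitment 4 fell, with a median of -0.23. Over all genes 0.314% were called lower. The other 11 neuron markers did not pass, and 2 of them were positive (Reln 0.15 and Snap25 0.04). Of 20 apical progenitor markers 16 had negative differences too, with a median of -0.13, 1 called lower and 1 called higher. Negative signs were thus not particular to neuron markers, but the neuron markers had the lower median and more genes called lower. Whether the difference of a neuronal BAF subunit differs from that of a neuron marker was not tested. In cortex taken whole, fewer cells of a type and less RNA per cell cannot be told apart.

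The remaining BAF genes had a wider range of differences, from -0.51 to 0.11, with a median close to that of the 10 genes. Of 21 other subunits, 0 rose and 0 fell at an adjusted p under 0.05, with 4 lower and 0 higher before adjustment (p under 0.05) and a median of -0.02. These 4 were Smarcc2, Bcl11a, Bcl11b and Smarcd3. Over all genes 4.68% were lower at that unadjusted threshold. The mean level of the neuron markers was lower in the same arrays, at 7.29 to 7.74 in mutants, against 7.83 to 8.06 in wild type. Its part in the values of these 4 genes was not tested.

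Smarcc2 encodes BAF170, which in the mouse cortex competes with BAF155, the product of Smarcc1, for a place in the complex. It was at 9.74, 9.38, 9.41, 9.57 and 9.47 in mutants, against 9.73, 9.89, 9.83, 9.85 and 9.69 in wild type. Mutant arrays 2 to 5 were below every wild-type array, and array 1 lay inside the wild-type range. The difference was -0.28 (95% interval -0.44 to -0.12, limma adjusted p = 0.138). Without mutant array 1 it was -0.34 with an adjusted p of 0.0236 in limma, so that array decided the call. Without mutant array 5 it was -0.27 and without mutant array 3 -0.26 (limma adjusted p = 0.196 and 0.266).

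Bcl11a encodes a zinc finger protein of young cortical neurons that is also a BAF subunit. It was at 8.82, 8.57, 8.01, 8.49 and 8.97 in mutants, against 8.99, 9.36, 9.10, 9.03 and 8.93 in wild type. All mutant arrays but the fifth were below the wild-type range. The difference was -0.51 (95% interval -0.81 to -0.22, limma adjusted p = 0.149). Without mutant arrays 1 and 5 together it was -0.73 with a limma adjusted p of 0.00715. With only array 1 or only array 5 left out it was -0.58 and -0.61 (limma adjusted p = 0.0795 and 0.0541), short of the threshold. Without mutant array 3 it was -0.37 (limma adjusted p = 0.209).

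Its paralog Bcl11b, which in later cortex marks neurons that project below the cortex, lay below 8.57 in both genotypes. It measured 7.65, 7.47, 7.35, 7.47 and 7.95 in mutants, against 7.77, 8.08, 7.86, 7.74 and 7.92 in wild type, with array 5 the one mutant inside the wild-type range. The difference was -0.29 (limma adjusted p = 0.307), and -0.39 without mutant array 5 (limma adjusted p = 0.0483). Without mutant array 1 it was -0.31 and without mutant array 3 -0.24 (limma adjusted p = 0.229 and 0.475).

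Smarcd3, a BAF60 subunit gene, was at 8.49, 8.34, 8.28, 8.21 and 8.38 in mutants, against 8.66, 8.69, 8.60, 8.41 and 8.40 in wild type. All mutant arrays but the first were below the wild-type range. Every mutant value and the wild-type values 8.41 and 8.40 lay below 8.57, where background makes up part of the signal. It differed by -0.21 (limma adjusted p = 0.356), with -0.27 (limma adjusted p = 0.0911) without mutant arrays 1 and 5. Without those arrays 3 of the 21 subunits were called lower (Smarcc2, Bcl11a and Bcl11b) and 0 higher, while 0 of the 10 switch and core genes were called in either direction. Arrays 1 and 5 held the highest mutant values of Bcl11a and Bcl11b, and array 1 that of Smarcc2. Leaving both out, a choice made after seeing the data, had to lower the mutant means of these 3 genes. These calls therefore add no separate support for a difference. The same 3 were called when limma weighted the arrays by the spread of these same values. The weights were 0.254 for mutant array 1 and 0.411 for mutant array 5. They were 0.914 to 1.79 for the other mutant arrays and 1.01 to 2.13 for wild type. The same 2 arrays were thus weighted down, so this setting is not independent of leaving them out. Leaving out these 2 arrays raised the number of calls over all 20405 genes to 502, against 117 with them. With array weights it was 408. These totals take both directions together, so they give only an upper limit to set beside the 3 of 21. The genes called lower were at most 502 of 20405 without the 2 arrays and at most 408 of 20405 with array weights.

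**Figure D3:**
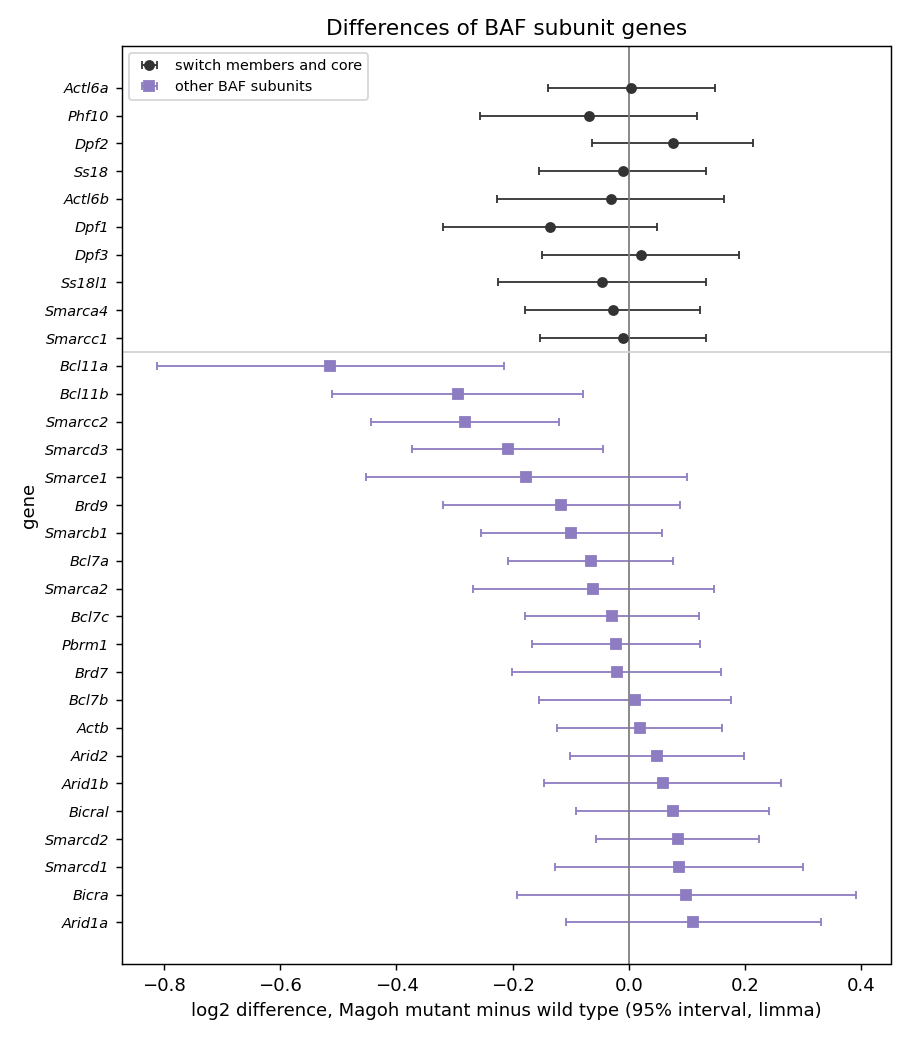
Log2 differences, Magoh mutant minus wild type (horizontal axis), with 95% intervals from limma for the 10 switch and core genes (circles) and the 21 other BAF subunits (squares, ordered by difference). The intervals of the 10 genes all include 0, and those of Bcl11a, Bcl11b, Smarcc2 and Smarcd3 lie below 0 before adjustment over all genes.

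**Figure D4:**
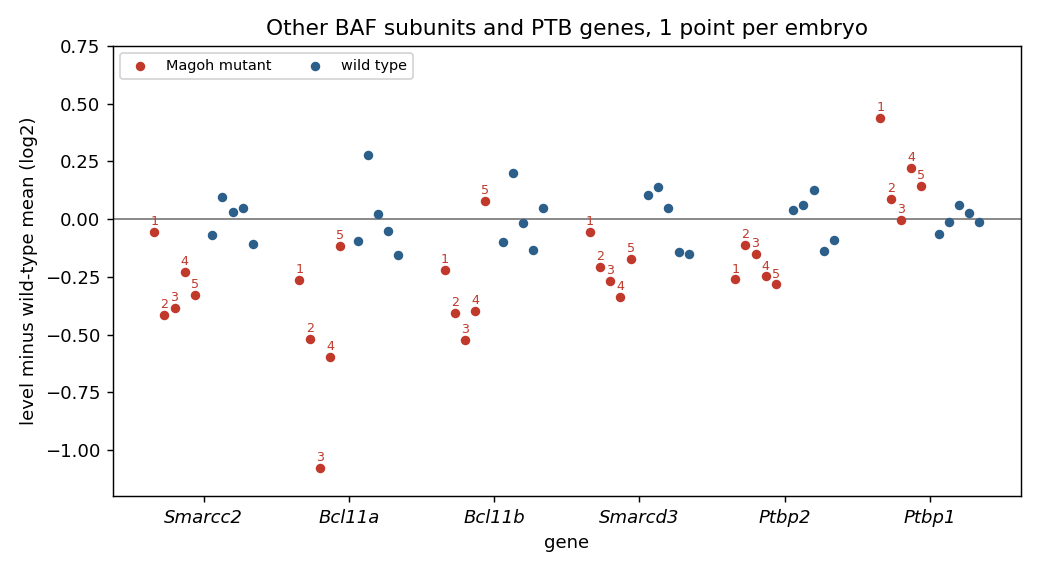
Levels relative to the wild-type mean of each gene (log2, vertical axis) for 4 BAF subunits and the PTB genes, with 1 point per embryo, Magoh mutants in red at the left (numbered 1 to 5) and wild type in blue at the right. Mutant array 1 or 5 is the highest mutant for the 4 subunits, and Ptbp2 and Ptbp1 differ in opposite directions.

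Regulators of the exchange were also examined. In mouse neurons, loss of Rest lets the microRNAs miR-9* and miR-124 rise, and these act on the transcript of Actl6a. The 16 listed regulators had 8 matched genes; the microRNAs and their host genes had no match and were not analysed here. Of the 8, 0 rose and 0 fell in limma, with 1 higher and 1 lower before adjustment (p under 0.05), and their median was 0.02. Rest, singled out for its role rather than by its p, differed by 0.0020 (limma adjusted p = 0.997) at a level of 9.05 in both genotypes, and its sign turned with single arrays left out.

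The 2 at the unadjusted threshold were the PTB genes, which encode splicing repressors that are themselves exchanged as neurons form. Ptbp2, the neuronal form, was at 11.20, 11.35, 11.31, 11.22 and 11.18 in mutants, against 11.50, 11.52, 11.59, 11.33 and 11.38 in wild type. The mutants were lower on average with overlap at array 2, and the difference was -0.21 (95% interval -0.36 to -0.07, limma adjusted p = 0.25). Ptbp1, the progenitor form, was at 11.52, 11.17, 11.08, 11.31 and 11.23 in mutants, against 11.02, 11.07, 11.15, 11.11 and 11.07 in wild type. All mutant arrays but the third were above the wild-type range, and the difference was 0.18 (95% interval 0.01 to 0.34, limma adjusted p = 0.487), or 0.11 without mutant array 1. Ctdsp1 and Ctdspl, small phosphatases that work with Rest, differed by 0.18 and 0.09 (limma adjusted p = 0.712 and 0.781), and Ctdsp1 by -0.0053 without mutant arrays 1 and 5.

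Genes whose deviations from the genotype means followed those of the Actl6 genes were ranked by Pearson correlation over the 10 arrays, as a description. For Actl6a they were Rpe (0.958), Gpx8 (0.950), Prelid3b (0.948), Ppp2ca (0.944) and Ubxn2b (0.942). For Actl6b they included Olfml2a (0.984), Oasl1 (0.980), Dhh (0.957) and Krtap3-3 (0.953), all at mean levels below 8.57. These values share the arrays and their spread, including that of mutant arrays 1 and 5, and were the highest among 20405 genes.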

How the data were processed

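The authors deposited log2 expression levels, 1 column per array. The submitters' processing notes name RMA and Affymetrix Expression Console, with no version. RMA normalises between arrays and compresses fold changes. The deposited annotation (gene number, accession) named the probe sets through RefSeq GRCm38.p6. Of 35557 probe sets, 6546 were controls, 23322 matched by gene number and 465 by accession. The probe set with the highest mean was kept, leaving 20405 genes. A second deposited table holds 10 per-sample columns whose names match no label, and these were not used.

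The difference between Magoh mutant and wild type was estimated for each gene by limma 3.58.1 (lmFit and eBayes; R 4.3.3) from all 10 arrays with no covariate, and with Benjamini-Hochberg adjustment over all genes an adjusted p under 0.05 was called. The labels call the arrays biological replicates. The number of arrays limits the precision. The genes, lists and tests were chosen with earlier results of these data known. Named were the 10 genes, Magoh, up to 4 genes of the other BAF, regulator and marker lists by p, and the 5 genes most correlated with Actl6a and Actl6b. One gene of the last group is not reported here. The alternatives are in the closing section.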

Additional observations from a re-analysis of the deposited data

How the results depend on the processing

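Of the 10 switch and core genes, 0 were called in either direction under any of the 22 alternatives: quantile normalization, median centring, 2 filters on dim genes, every probe set, averaged probe sets, array weights, a robust variance with intensity trend, the replicate block, a sex covariate, a threshold of 0.1, each array left out, and mutant arrays 1 and 5 left out together, which was chosen after seeing the data. The filters left out Actl6b and Dpf3, and the stricter one also Dpf1 and Ss18l1. Of the other subunits named, the stricter filter left out Bcl11b and Smarcd3. No second probe set existed for the 10 switch and core genes. The count of other subunits called lower was 3 with array weights, 3 without mutant arrays 1 and 5, and 0 to 1 with 1 array left out. Signs near 0 turned: with quantile normalization Actl6a was -0.0071 and Rest -0.014, with array weights Phf10 was 0.024, Dpf3 -0.041 and Smarcc1 0.028, and without mutant arrays 1 and 5 Phf10 was 0.069, Dpf3 -0.044, Smarcc1 0.051 and Ctdsp1 -0.0053. With 1 array left out, Actl6a ran from -0.036 to 0.040, Ss18 from -0.052 to 0.026, Actl6b from -0.097 to 0.048, Dpf3 from -0.047 to 0.054, Ss18l1 from -0.11 to 0.0038, Smarca4 from -0.060 to 0.013, Smarcc1 from -0.048 to 0.027 and Rest from -0.036 to 0.055. The cause was not tested. The numbers were not taken to pair the arrays: deviations of same-numbered arrays correlated over genes by 0.01, -0.07, 0.17, 0.36 and 0.06 for numbers 1 to 5, and numbers 3 and 4 alone correlated best with their own number. With the replicate block 83 genes in all were called, against 117 without it, with 0 of the 10 genes and 0 other subunits among them. Over all genes the other settings called between 64 (without wild-type array 2) and 408 (array weights), and 502 without mutant arrays 1 and 5.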

Other observations

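Actl6a also serves the INO80, SRCAP and NuA4 complexes. Of 28 other genes of these complexes, 0 rose and 0 fell in limma, with 2 higher and 1 lower before adjustment (p under 0.05) and a median of -0.01. Of 27 genes of the CHD and ISWI remodelers and their partners, 0 rose and 0 fell, with 1 higher and 0 lower at the unadjusted threshold and a median of 0.01.

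Markers of other cells were read beside the BAF genes. Of 13 red cell markers 0 were called (8 higher at an unadjusted p under 0.05), and their mean level was 9.11 to 9.60 in mutants, against 9.01 to 9.32 in wild type. Of 14 endothelial markers 0 were called (3 higher at the unadjusted threshold, 13 with a positive difference), at 7.73 to 7.90 in mutants, against 7.61 to 7.82 in wild type. Macrophage markers (14 measured, 0 called, 5 lower at the unadjusted threshold) lay at 6.17 to 6.33 in mutants, against 6.31 to 6.47 in wild type. Mesenchyme markers (14 measured, 0 called, 3 lower at the unadjusted threshold) lay at 8.48 to 8.75 in mutants, against 8.69 to 8.85 in wild type. Surface ectoderm markers (12 measured, 0 called, 1 higher and 1 lower at the unadjusted threshold) lay at 7.54 to 7.70 in mutants, against 7.47 to 7.72 in wild type. Of 20 apical progenitor markers, Lin28a rose (0.60) and Fabp7 fell (-0.92), with 1 higher and 8 lower at the unadjusted threshold and 16 negative differences, and the list mean was 9.51 to 9.63 in mutants, against 9.66 to 9.76 in wild type. Their part in the values of the BAF genes was not tested.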
